A study of Mus musculus with 8 samples.

Results

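Ch25h and 7 genes of sterol synthesis and its control (Hmgcs1, Idi1, Fdft1, Sqle, Cyp51, Insig1 and Srebf2) were followed in mouse yolk sacs at embryonic day 9.5 (E9.5) with activated or disrupted endothelial Notch signaling. These are 8 of the 18194 genes named by a single-gene probe set on the arrays, and all 8 were among the 10913 genes bright enough to be tested. They were chosen by symbol, with earlier results of these data known, to ask whether a higher level of Ch25h goes along with lower levels of the sterol synthesis genes in each mutant. Ch25h was picked because its signal was higher in both mutants, so its values are described without a test. Each gene was read from the brightest of its probe sets by mean signal, and its other probe sets served as a check.

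RNA of whole yolk sacs was hybridised to 8 single-channel Affymetrix arrays in 2 sets, with 2 arrays in each of 4 groups. EC-N1ICD yolk sacs (Tie2 Tg/0; ROSA +/N1ICD, strain C57BL6) express the activated intracellular domain of Notch1, and their wild types were Tie2 0/0; ROSA +/+ of the same strain. EC-Rbpj-KO yolk sacs (Tie2-Cre; Rbpj flox/flox, mixed strain) lack RBPJ, through which activated Notch binds DNA, in Tie2-expressing cells. Their wild types were of mixed strain too and are called wild type in their names, with no genotype given, from a mating in which both parents carried a floxed Rbpj allele and 1 the Tie2 transgene. Tie2-Cre is active in endothelial and also in blood lineages, whereas the RNA came from every cell of the yolk sac, so that fewer cells of a type and less RNA per cell cannot be told apart. The descriptions do not say in words that each array held a separate embryo, so the p-values rest on the spread from sample to sample, which may be technical.

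Cells make cholesterol from acetyl-CoA through mevalonate, farnesyl diphosphate, squalene and lanosterol. When sterols are scarce, SCAP carries the transcription factor SREBP2 (gene Srebf2) from the endoplasmic reticulum to the Golgi, where it is cleaved and released to activate the genes of this pathway. Ch25h encodes cholesterol 25-hydroxylase, an enzyme known from macrophages and from interferon responses. Its product 25-hydroxycholesterol binds INSIG proteins, which hold SCAP and SREBP2 back, and it activates the LXR receptors that drive cholesterol export.

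The promoters of 4 genes are shown because they hold the letters of known regulatory motifs and belong to Ch25h and to 3 sterol genes described below. Each is the 250 bases before the annotated start (RefSeq, GRCm38.p6), written 5′ to 3′ along the gene. They lie at chr19:34475149-34475398 on the minus strand (Ch25h), chr13:119690101-119690350 on the plus strand (Hmgcs1), chr5:4104698-4104947 on the minus strand (Cyp51) and chr5:28071162-28071411 on the plus strand (Insig1). Capitals mark CCAAT, the box bound by NF-Y, TCACNCCAC, a form of the sterol regulatory element, and GTGGGAA, the core bound by RBPJ, on either strand.
Ch25h: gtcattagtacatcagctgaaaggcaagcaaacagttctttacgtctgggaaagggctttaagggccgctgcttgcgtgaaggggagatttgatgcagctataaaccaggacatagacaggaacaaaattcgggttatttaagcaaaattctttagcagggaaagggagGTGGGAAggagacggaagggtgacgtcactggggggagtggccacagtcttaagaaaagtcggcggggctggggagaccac
Hmgcs1: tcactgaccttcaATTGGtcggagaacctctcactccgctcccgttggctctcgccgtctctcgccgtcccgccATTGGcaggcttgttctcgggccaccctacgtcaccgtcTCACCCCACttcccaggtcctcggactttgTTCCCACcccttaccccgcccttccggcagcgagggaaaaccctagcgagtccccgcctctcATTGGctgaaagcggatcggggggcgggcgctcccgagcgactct
Cyp51: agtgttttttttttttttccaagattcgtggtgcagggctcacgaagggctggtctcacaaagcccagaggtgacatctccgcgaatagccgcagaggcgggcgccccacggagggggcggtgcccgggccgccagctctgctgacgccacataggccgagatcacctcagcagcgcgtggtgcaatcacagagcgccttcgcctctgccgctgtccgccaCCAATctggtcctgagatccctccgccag
Insig1: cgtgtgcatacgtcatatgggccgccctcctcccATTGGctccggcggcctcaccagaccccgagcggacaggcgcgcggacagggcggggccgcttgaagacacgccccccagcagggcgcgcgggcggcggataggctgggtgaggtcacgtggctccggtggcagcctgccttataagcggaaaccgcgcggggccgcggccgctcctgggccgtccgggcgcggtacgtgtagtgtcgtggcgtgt

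The promoter of Ch25h held GTGGGAA, starting 81 bases before the start of the gene, and neither of the other 2 motifs. That of Hmgcs1 held TCACNCCAC 137 bases before the start, GTGGGAA on the opposite strand and 3 CCAAT boxes. The promoter table matched 6 of the 8 genes, all but Sqle and Fdft1. CCAAT was found in 5 of the 5 sterol genes matched (Cyp51, Hmgcs1, Idi1, Insig1 and Srebf2) and in 12 of 13 other sterol synthesis genes, against 33.8% of the 32851 windows of this length. A gene counted if any of its windows matched, whereas the percentage is per window. These 13 are the listed genes with a promoter window and are not the same 13 as those tested on the arrays. TCACNCCAC was in 1.05% of all windows and GTGGGAA in 5.42%. None of these motifs shares bases with another in the 4 windows shown. A match describes letters and shows no binding.

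On the arrays, Ch25h was higher in both mutants, and the sterol genes were not lower in both. In EC-Rbpj-KO yolk sacs 5 of the 7 sterol genes (Idi1, Sqle, Cyp51, Insig1 and Srebf2) had both mutant arrays below both wild type arrays, and 1 of these, Sqle, passed the test. In EC-N1ICD yolk sacs none was lower on both arrays, and 5 of the 7 (Hmgcs1, Idi1, Sqle, Cyp51 and Insig1) had both mutant arrays above both wild type arrays with none passing the test. Over all genes tested, 4.96% passed the test in EC-Rbpj-KO and 0.596% in EC-N1ICD. In each direction, 2.96% fell and 27.5% were lower on both arrays in EC-Rbpj-KO, and 0.376% rose and 23.7% were higher on both arrays in EC-N1ICD.

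Before these genes are taken in turn, some values of whole arrays bear on them. Rbpj read 470 and 497 in EC-Rbpj-KO yolk sacs beside 984 and 919 in the wild types (log2 fold change -0.98, adjusted p = 0.00866 from limma). Xist, made from the inactive X chromosome, reached 3600 and 3730 in EC-N1ICD yolk sacs and 2005 in replicate 1 of EC-Rbpj-KO, against 77 to 96 on the other 5 arrays, and the Y-linked Eif2s3y was at 9 to 12 on those 3 arrays and 702 to 870 on the other 5. Sex and genotype therefore cannot be told apart in the EC-N1ICD set, and EC-Rbpj-KO replicate 1 was the single female of its set. The ratio of 3' to 5' signal of Gapdh, which reflects RNA quality, lay between 2.43 and 4.64 and was highest on EC-Rbpj-KO replicate 1. In both sets the name of mutant replicate 1 starts with a number that differs from the one shared by the other 3 arrays, and its meaning is not stated.

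Ch25h gave signals of 127 and 130 in EC-N1ICD yolk sacs beside 33 and 19 on their wild type arrays. In the other set it gave 136 and 101 in EC-Rbpj-KO yolk sacs beside 25 and 31. The mutant arrays lay far above the wild type arrays in both sets, with no overlap. The ratio of geometric means was 5.13 in EC-N1ICD (log2 fold change 2.36, standard error 0.35, n = 2 per group) and 4.21 in EC-Rbpj-KO (2.07, standard error 0.35). Ch25h has 1 probe set, of low signal: wild type values ranked between the 16.8th and 31.4th percentile of the 18194 genes on their array and mutant values between the 45.5th and 50.2nd. The size of the ratio is therefore limited by background, and with 16 added to each signal the log2 values were 1.80 and 1.60.

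**Figure D1:**
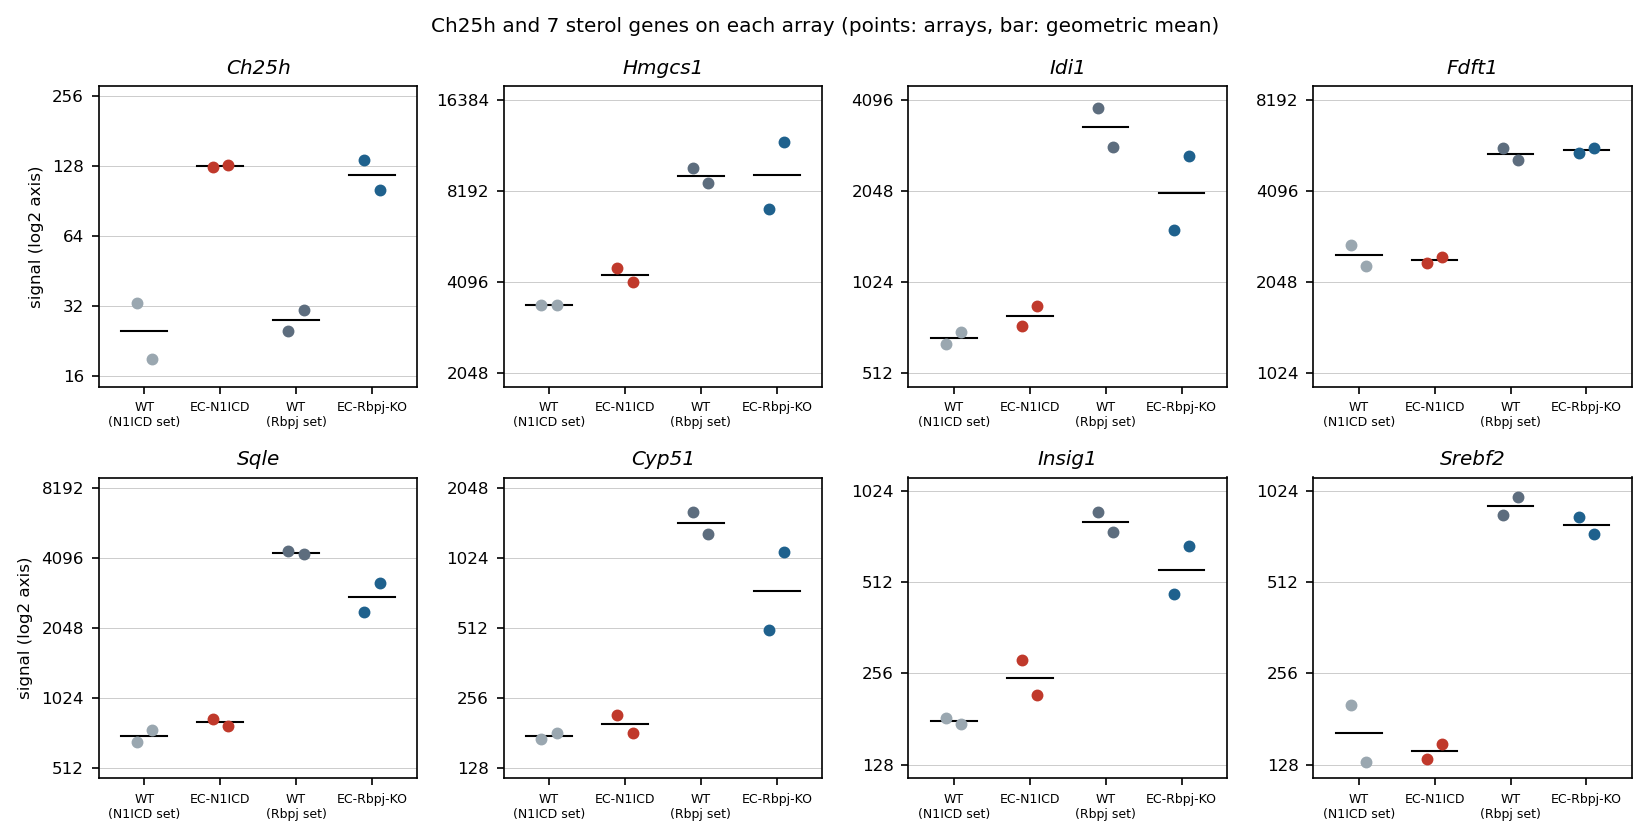
Signal of Ch25h and the 7 sterol genes on each array (points, log2 axis) with the geometric mean of each group (bar), for the wild type and mutant groups of both sets. Ch25h lies between 101 and 136 on all 4 mutant arrays and between 19 and 33 on all 4 wild type arrays, whereas Sqle lies below its wild type arrays in EC-Rbpj-KO and above them in EC-N1ICD.

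Among the early enzymes, Hmgcs1 makes HMG-CoA, the precursor of mevalonate. Its signals were 4555 and 4100 in EC-N1ICD yolk sacs beside 3436 and 3429. They were 7160 and 11843 in EC-Rbpj-KO yolk sacs beside 9773 and 8667. The EC-N1ICD arrays lay above their wild type arrays, while the EC-Rbpj-KO arrays lay on either side of theirs. The log2 fold change was 0.33 (standard error 0.18, adjusted p = 0.535 from limma) in EC-N1ICD and 0.00 (standard error 0.18, adjusted p = 0.999) in EC-Rbpj-KO. The other probe sets of Hmgcs1 did not follow the brightest one in EC-Rbpj-KO: 3 of them had ratios of 0.737, 0.715 and 0.573 with both mutant arrays below both wild type arrays, for example 588 and 721 against 1196 and 1078. In EC-N1ICD the same 3 gave ratios of 1.03, 0.949 and 1.02, and the last one was too dim to read, with signals of 10 to 26.

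Idi1 isomerises the C5 building block of isoprenoids. Its signals were 732 and 855 in EC-N1ICD yolk sacs beside 639 and 702, and 1521 and 2665 in EC-Rbpj-KO yolk sacs beside 3842 and 2868. EC-Rbpj-KO replicate 1 was the lowest array of its set and replicate 2 lay just under the lower wild type array. The log2 fold change was 0.24 (standard error 0.24, adjusted p = 0.787 from limma) in EC-N1ICD and -0.72 (standard error 0.24, adjusted p = 0.116) in EC-Rbpj-KO. A second probe set gave ratios of 1.14 and 0.699, with overlapping arrays in both sets.

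Fdft1, squalene synthase, commits farnesyl diphosphate to sterols. It gave 2361 and 2472 in EC-N1ICD yolk sacs beside 2719 and 2314, and 5459 and 5685 in EC-Rbpj-KO yolk sacs beside 5692 and 5190. Mutant and wild type arrays overlapped in both sets. The log2 fold changes were -0.05 (95% interval -0.32 to 0.21, adjusted p = 0.92 from limma) and 0.04 (-0.23 to 0.30, adjusted p = 0.908). A second bright probe set gave 1238 and 1068 against 835 and 822 in the EC-N1ICD set, a ratio of 1.39, and a ratio of 0.96 in the EC-Rbpj-KO set.

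Of the enzymes after squalene, Sqle, the squalene epoxidase and a rate-limiting step, was the member that fell. Its signals were 2408 and 3193 in EC-Rbpj-KO yolk sacs beside 4392 and 4244, and 834 and 777 in EC-N1ICD yolk sacs beside 663 and 744. The EC-Rbpj-KO arrays lay clearly below and the EC-N1ICD arrays slightly above their wild types. The log2 fold change in EC-Rbpj-KO was -0.64, a ratio of 0.642 (standard error 0.16, adjusted p = 0.045 from limma). In EC-N1ICD it was 0.20 (standard error 0.16, adjusted p = 0.722). The call in EC-Rbpj-KO stood close to the threshold and was lost in 13 of 18 alternatives, with adjusted p between 0.0159 and 0.46. It held without EC-Rbpj-KO replicate 2 and was lost without any other single array, with a log2 fold change of -0.44 (adjusted p = 0.137) without EC-Rbpj-KO replicate 1.

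Cyp51 removes a methyl group from lanosterol. It gave 503 and 1091 in EC-Rbpj-KO yolk sacs beside 1607 and 1299, and 215 and 181 in EC-N1ICD yolk sacs beside 171 and 180. Replicate 1 of EC-Rbpj-KO was again the lowest array of its set, and the EC-N1ICD arrays barely cleared their wild types. The log2 fold change was -0.96 in EC-Rbpj-KO (standard error 0.29, adjusted p = 0.0886 from limma) and 0.17 in EC-N1ICD (standard error 0.29, adjusted p = 0.895). The value in EC-Rbpj-KO turned on the array left out: it was -1.52 (adjusted p = 0.00457) without replicate 2 and -0.41 (adjusted p = 0.305) without replicate 1. The other 2 probe sets of Cyp51 gave ratios of 0.443 and 0.672 in EC-Rbpj-KO. In EC-N1ICD their ratios were 1.27 and 1.81, both with the mutant arrays above the wild types, the latter from dim signals of 13 to 37.

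Of the regulators, Insig1 encodes the sterol-sensing anchor of SCAP and is itself an SREBP target. It gave 467 and 677 in EC-Rbpj-KO yolk sacs beside 872 and 749, and 283 and 217 in EC-N1ICD yolk sacs beside 182 and 174. The groups did not overlap in either set, and the direction was opposite. The log2 fold change was -0.52 (standard error 0.22, adjusted p = 0.205 from limma) in EC-Rbpj-KO and 0.48 (standard error 0.22, adjusted p = 0.416) in EC-N1ICD. Srebf2 itself gave 844 and 738 in EC-Rbpj-KO yolk sacs beside 855 and 980, and 134 and 150 in EC-N1ICD yolk sacs beside 202 and 131. The EC-Rbpj-KO arrays lay just under their wild types and the EC-N1ICD arrays overlapped theirs. Its log2 fold changes were -0.21 (adjusted p = 0.635) and -0.20 (adjusted p = 0.812), each with a standard error of 0.22. A second probe set of Srebf2 gave 232 and 308 against 480 and 382 in the EC-Rbpj-KO set, a ratio of 0.624, and a ratio of 1.03 in the EC-N1ICD set.

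**Figure D2:**
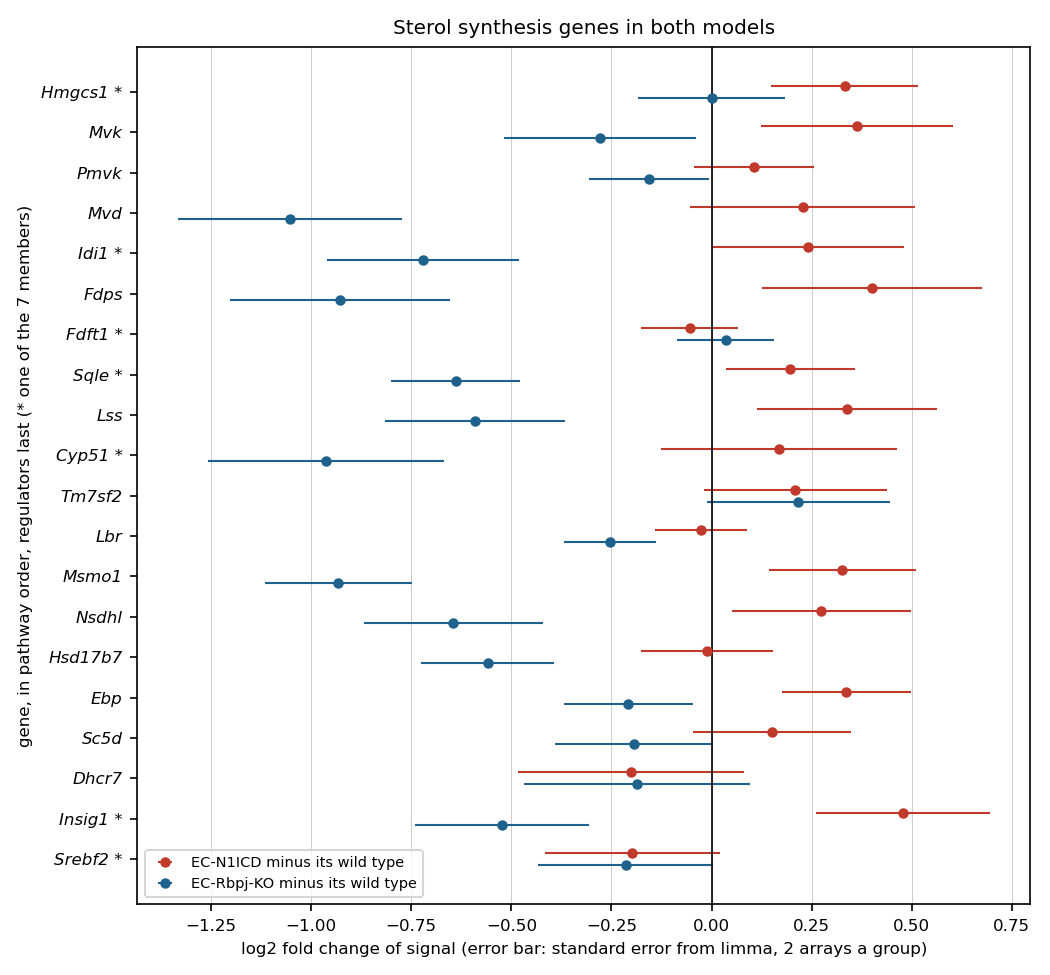
Log2 fold change (mutant minus wild type, x axis) with its standard error for the 7 members and the 13 other sterol synthesis genes tested, for both models. In EC-Rbpj-KO 17 of the 20 genes lie below 0, and in EC-N1ICD 15 of the 20 lie above 0. Of all genes tested, 53.3% lie below 0 in EC-Rbpj-KO and 47.7% in EC-N1ICD.

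The median log2 fold change of the 7 sterol genes was 0.197 in EC-N1ICD, beside 0.013 over all genes tested, and -0.523 in EC-Rbpj-KO, beside -0.0244. No member passed the test in EC-N1ICD by limma. At an unadjusted p under 0.05 there was 1 member higher (Insig1) by limma and 1 by the methods' t-test, and none lower by either. In EC-Rbpj-KO, 4 members were lower at an unadjusted p under 0.05 by limma (Idi1, Sqle, Cyp51 and Insig1) and none by the methods' t-test. Such a limma p was common: of the 10913 genes tested, 2175 reached it when EC-Rbpj-KO was compared with its wild types. The EC-N1ICD comparison had 1309 such genes, and both totals count rises and falls together. Limma counts at this level in the gene lists below are to be read against these totals. The effects of the 2 models were set against each other in a contrast of both contrasts, which called 0.266% of all genes. No member passed it (adjusted p between 0.218 and 0.989 from limma), and 4 members (Idi1, Sqle, Cyp51 and Insig1) had an unadjusted p under 0.05, each with the larger value in EC-N1ICD. Over all 10913 genes, 1184 had such a p in this contrast, in either direction. For Sqle the difference was 0.84 on the log2 scale (adjusted p = 0.218) and for Idi1 it was 0.96 (adjusted p = 0.328). The opposite signs in the 2 models are thus not shown to differ for any single member.

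The 2 EC-Rbpj-KO arrays were not alike. Relative to their own wild type mean, the median of the 7 sterol genes was -0.791 on replicate 1 and -0.311 on replicate 2, and that of Ch25h was 2.29 and 1.86. Replicate 1, with the higher Ch25h signal, had the lower signal for 6 of the 7 sterol genes. The same order was found between the 2 wild type arrays of that set, where replicate 2 (Ch25h at 31 against 25) had the lower signal for 6 of 7. In the EC-N1ICD set the array with more Ch25h had the lower signal for 4 of 7 genes among the mutants, at 130 against 127, and for 3 of 7 among the wild types, at 33 against 19. Each of these orders rests on 1 pair of arrays. Among the 3 arrays of a set that share the first number in their names, which leaves out mutant replicate 1, the median of the sterol genes was -0.311 in EC-Rbpj-KO, where the calls of Sqle and Msmo1 were lost, and 0.146 in EC-N1ICD, and Ch25h was at 1.86 and 2.38. Replicate 1 of EC-Rbpj-KO is the female array with the highest Gapdh ratio named above, and the part of sex and RNA quality in its lower values was not tested.

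**Figure D3:**
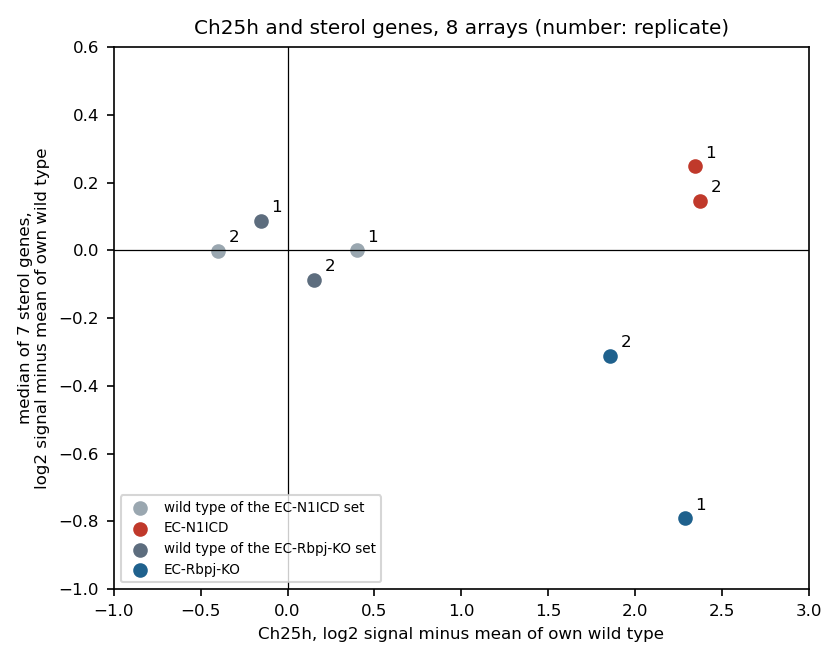
Each point is an array, with the log2 signal of Ch25h minus its own wild type mean on the x axis and the median of the 7 sterol genes, centred likewise, on the y axis. The 2 EC-N1ICD arrays sit at 0.248 and 0.146 and the 2 EC-Rbpj-KO arrays at -0.791 and -0.311, at similar heights of Ch25h.

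The level of the sterol genes also differed between the sets themselves. For all 7 members every array of the EC-Rbpj-KO set was brighter than every array of the EC-N1ICD set. Comparing wild types, the signal in the EC-Rbpj-KO set over that in the EC-N1ICD set was 8.24 for Cyp51, 6.15 for Sqle, 5.63 for Srebf2, 4.96 for Idi1, 4.54 for Insig1, 2.68 for Hmgcs1 and 2.17 for Fdft1. On the log2 scale their median was 2.31, beside 0.172 over all genes tested. These 7 values ranked between the 93.7th and 100th percentile of all genes tested, and the ratio of Ch25h was 1.11. All 13 other sterol synthesis genes had higher signals on both wild types of the EC-Rbpj-KO set than on either of the EC-N1ICD set, as had 46.5% of all genes tested. Set, strain and hybridisation cannot be told apart, and no test was made between sets. In EC-Rbpj-KO the 5 members that were lower therefore still exceeded every array of the EC-N1ICD set.

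Of 16 other genes of the pathway listed, 13 were matched and tested. In EC-N1ICD none passed the limma test, none had an unadjusted p under 0.05 by limma and 3 were higher at that level by the methods' t-test. There 9 of the 13 were higher on both mutant arrays, and the median log2 fold change was 0.23. In EC-Rbpj-KO 1 of the 13 fell, 7 were lower at an unadjusted p under 0.05, 8 were lower on both mutant arrays and the median was -0.28. The gene that fell was Msmo1, the sterol C4-methyl oxidase, with 1291 and 1822 in EC-Rbpj-KO yolk sacs beside 2859 and 2998. Both mutant arrays were far below both wild types (log2 fold change -0.93, standard error 0.18, adjusted p = 0.0157 from limma). The call was lost in 6 of 18 alternatives, among them without EC-Rbpj-KO replicate 1 (-0.68, adjusted p = 0.0505), without wild type replicate 1 (-0.97, adjusted p = 0.0815) and without wild type replicate 2 (-0.90, adjusted p = 0.13) of that set.

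Mvd, which makes isopentenyl diphosphate, gave 151 and 262 in EC-Rbpj-KO yolk sacs beside 498 and 342 (log2 fold change -1.05, adjusted p = 0.0553 from limma). Fdps, farnesyl diphosphate synthase, gave 196 and 401 against 561 and 507 (-0.93, adjusted p = 0.0793). Neither passed the test, and in both replicate 1 was the lower mutant array. Lss, the lanosterol synthase, was at -0.59 (adjusted p = 0.165) and Hsd17b7 at -0.56 (adjusted p = 0.0793), while Tm7sf2, a sterol reductase, was at 0.22. Over all 20 sterol genes, 17 had a log2 fold change below 0 in EC-Rbpj-KO, beside 53.3% of all genes tested, and 17 were lower on replicate 1 than on replicate 2, beside 43.1%. In EC-N1ICD 15 of the 20 were above 0 and 5 below, where 47.7% of all genes tested were below. There 7 were lower on replicate 1 than on replicate 2, beside 56.5%.

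Among genes that control SREBP and cholesterol uptake, none of the 9 tested of 12 listed passed the limma test in either model, with 1 higher in EC-N1ICD (Stard4) and 3 lower in EC-Rbpj-KO (Srebf1, Npc1 and Rnf139) at an unadjusted p under 0.05. By the methods' t-test these counts were 0 and 1. Scap, the SREBP escort, was at -0.43 (adjusted p = 0.436) in EC-N1ICD and -0.31 (adjusted p = 0.425) in EC-Rbpj-KO.

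Fatty acid synthesis is driven chiefly by SREBP1, from Srebf1. Of its 10 listed genes 2 fell in EC-Rbpj-KO and none passed the test in EC-N1ICD, where 1 (Scd1) was higher at an unadjusted p under 0.05 by limma and 1 by the methods' t-test. Fasn, fatty acid synthase, gave 1014 and 1113 in EC-Rbpj-KO yolk sacs beside 1955 and 1909, and Elovl6, a fatty acid elongase, gave 1592 and 1687 against 2881 and 2447. All 4 mutant values were below all wild type values of the same gene. Fasn was at -0.86 (adjusted p = 0.0343 from limma) and Elovl6 at -0.70 (adjusted p = 0.0198). The call of Fasn was lost in 9 of 18 alternatives, among them without any of the 4 arrays of its set (adjusted p up to 0.176) or either EC-N1ICD array, and that of Elovl6 in 5 of 18, among them without wild type replicate 1 (adjusted p = 0.176) or wild type replicate 2 (adjusted p = 0.0755) of that set. Acss2, an acetyl-CoA synthetase, was at 0.75 (adjusted p = 0.0945), opposite to them.

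LXR targets were of interest because 25-hydroxycholesterol activates LXR. Of 9 tested of 10 listed, 1 fell in EC-Rbpj-KO and none passed the limma test in EC-N1ICD, where 1 (Abca1) was lower at an unadjusted p under 0.05 by limma and 1 by the methods' t-test. Abca1, the cholesterol exporter, gave 685 and 610 in EC-Rbpj-KO yolk sacs beside 3054 and 2891. In the EC-N1ICD set it gave 770 and 899 against 1168 and 1236. It was lower on both mutant arrays in both models. The log2 fold change was -2.20 in EC-Rbpj-KO (standard error 0.15, adjusted p = 5.9e-05 from limma) and -0.53 in EC-N1ICD (adjusted p = 0.17). The call in EC-Rbpj-KO was lost with the methods' t-test (adjusted p = 0.294) and with no other alternative run. Its other 2 probe sets were dim, with ratios of 0.342 and 0.625 in EC-Rbpj-KO. In EC-N1ICD these 2 were not lower, with ratios of 1.01 and 1.2. With all probe sets averaged, the log2 fold change in EC-N1ICD was -0.087 (adjusted p = 0.931 from limma). Of the other targets, Abcg1 was at 0.77 (adjusted p = 0.356) in EC-Rbpj-KO, and Mylip, an LDL receptor ligase, gave 5923 and 5878 against 5060 and 5621 there (0.15, adjusted p = 0.451). LXR activation is known to raise Abca1, and the part of LXR in these values was not tested.

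**Figure D4:**
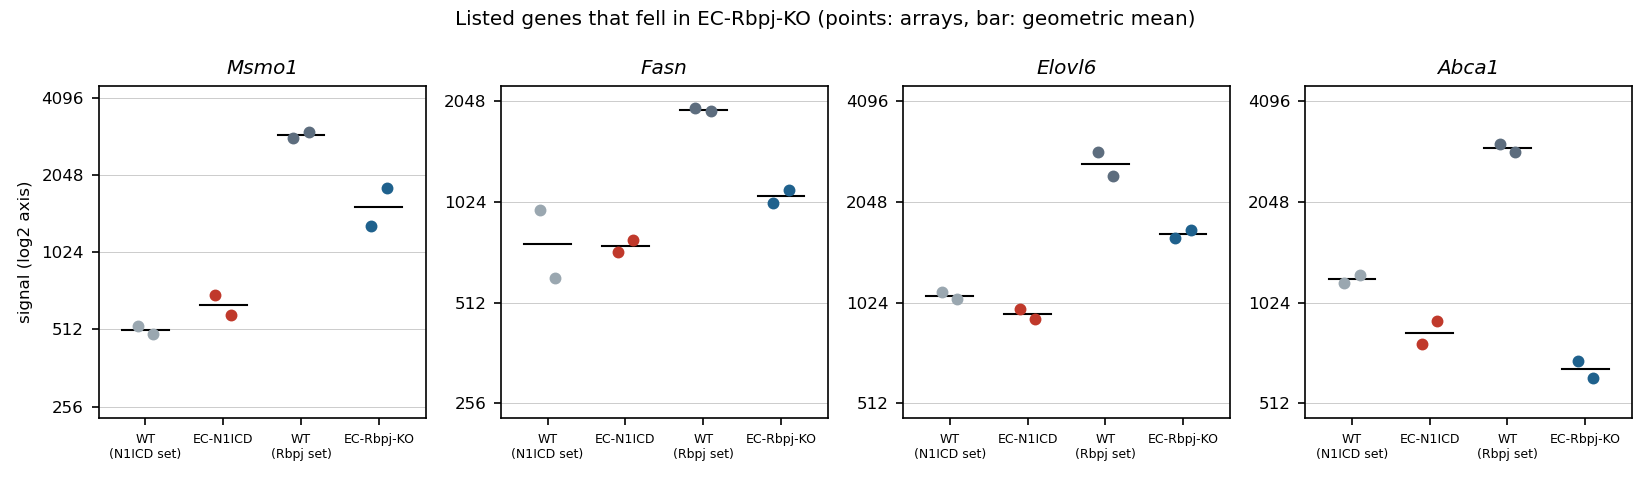
Signal of Msmo1, Fasn, Elovl6 and Abca1, the listed lipid genes that fell in EC-Rbpj-KO, on each array (points, log2 axis) with the geometric mean of each group (bar). Abca1 shows the widest gap, with 685 and 610 in EC-Rbpj-KO yolk sacs beside 3054 and 2891.

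None of the 5 tested of 12 listed genes of oxysterol metabolism and sensing passed the limma test in either model, with none in EC-N1ICD and 1 higher in EC-Rbpj-KO (Osbpl1a) at an unadjusted p under 0.05, and 1 and 0 by the methods' t-test. Gpr183, the receptor for a product made from 25-hydroxycholesterol, was too dim to be tested, at 41 and 44 in EC-Rbpj-KO yolk sacs beside 22 and 23.

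Ch25h is known as an interferon-induced gene and a gene of macrophages, and the values of both lists are given beside it. Of 14 interferon-induced genes listed, 7 were tested. Ifih1, a sensor of viral RNA, rose in EC-N1ICD, from 122 and 96 to 421 and 302 (log2 fold change 1.72, adjusted p = 0.0145 from limma), and was at 0.76 (adjusted p = 0.107) in EC-Rbpj-KO. Its call was lost in 5 of 17 alternatives, among them without EC-N1ICD replicate 1 (adjusted p = 0.184), without wild type replicate 1 (adjusted p = 0.053) and without wild type replicate 2 (adjusted p = 0.0909). Ifit3 was at 1.81 (adjusted p = 0.0531) in EC-N1ICD and 1.43 (adjusted p = 0.0502) in EC-Rbpj-KO. No gene of the list passed in EC-Rbpj-KO, with 4 higher, Ifit3 among them, at an unadjusted p under 0.05 by limma and 1 by the methods' t-test. The summed signal of the tested genes was 2465 to 2972 in EC-N1ICD yolk sacs beside 1891 to 2012, and 2043 to 2385 in EC-Rbpj-KO yolk sacs beside 1497 to 1726.

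Of 12 macrophage markers listed, 10 were tested. In EC-Rbpj-KO 5 rose, and in EC-N1ICD 1 rose, where over all genes 2% and 0.376% did. Among those called, Ly86, Cx3cr1 and Tyrobp read under the filter level of 67.9 on every wild type array. They were tested only through their mutant arrays, which favours rises in these counts, so no excess over all genes is read from them. Csf1r, the receptor that macrophages need to survive, gave 2497 and 1935 in EC-Rbpj-KO yolk sacs beside 965 and 599 (log2 fold change 1.53, adjusted p = 0.00391 from limma). Cx3cr1, Ly86, Adgre1 and Tyrobp rose there too, and Cd68 fell, from 255 and 255 to 108 and 164. In EC-N1ICD, Ly86 rose from 28 and 27 to 136 and 101 (2.09, adjusted p = 0.029 from limma). There 7 of the 10 markers were higher on both mutant arrays, beside 23.7% of all genes tested. The other 3 (Cd68, Mrc1 and Fcer1g) were lower on both, beside 18.9%, with Mrc1 at 432 and 548 against 885 and 699. The count of 7 includes Ly86, Cx3cr1 and Tyrobp, and also Ptprc, which read 39 to 66 on the wild type arrays, under the same filter level. No excess over all genes is read from that count either. The summed signal was 3430 to 4721 in EC-Rbpj-KO yolk sacs beside 1521 to 2082, and 2481 to 2885 in EC-N1ICD yolk sacs beside 2042 to 2174. The dimmest marker of the list by mean signal, Aif1, was at 14 to 35. On every array it lay under the median of all probe sets, which was 38 to 51. The part of macrophages or of an interferon response in the Ch25h signal was not tested.

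The other cell types of the yolk sac were checked by their markers. None of the 6 endothelial markers tested of 8 listed passed the limma test in either model, with 1 higher (Esam) and 1 lower (Tek) in EC-Rbpj-KO at an unadjusted p under 0.05 and 1 lower by the methods' t-test, and Pecam1 was too dim to test, at 16 to 43. The summed endothelial signal was 2471 to 2605 in EC-N1ICD yolk sacs beside 2180 to 2784, and 1553 to 2195 in EC-Rbpj-KO yolk sacs beside 1632 to 1646. Markers of visceral endoderm, the absorptive outer layer of the yolk sac, had a summed signal of 173311 to 197764 over the 8 arrays, with median log2 fold changes of -0.03 and -0.08. This sum is led by very bright genes such as Afp, at 26543 to 29705, where the highest signal on any array was 36554. In EC-Rbpj-KO 1 of these genes fell, Cubn (-0.34, adjusted p = 0.0324 from limma). All 8 erythroid genes tested were lower on both EC-N1ICD arrays, each at an unadjusted p under 0.05 by limma, none by the methods' t-test and none past the adjusted threshold, with a median of -2.00 on replicate 1 and -0.40 on replicate 2. Over the same genes EC-Rbpj-KO was at -0.94 on replicate 1 and -0.04 on replicate 2. Of the 8 mesothelial and mesenchymal genes tested, 1 rose in EC-N1ICD and 1 fell in EC-Rbpj-KO. The part of cell composition in the sterol gene values was not tested.

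The genes whose pattern over the 8 arrays was most like that of Ch25h, after the mean of each set was removed, were Ndrg4 (Pearson r 0.996), Marcksl1 (0.993), Slc5a4b (0.992), Atp6v0e2 (0.987) and Aldh7a1 (0.986). They are given as a description over 8 arrays in 2 sets. Ndrg4 gave 195 and 179 in EC-N1ICD yolk sacs beside 113 and 91, and 188 and 173 in EC-Rbpj-KO yolk sacs beside 104 and 113. Slc5a4b was 2.65 times its wild type in EC-N1ICD and 2.43 times in EC-Rbpj-KO, and Aldh7a1 only 1.22 and 1.25 times. No sterol synthesis gene was among these 5. Only the highest positive correlations were taken, so a gene that fell as Ch25h rose could not enter the list.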

How the data were processed

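RNA of E9.5 yolk sacs was measured on 8 arrays. The deposited intensity values, 1 linear signal per probe set, were summarised by the authors with MAS5 (version, scaling target and detection calls not given in the sources used here). Samples were grouped from source names, titles and genotypes. Of 45101 probe sets, 34958 named 1 gene, 932 several and 9211 none, through the platform annotation; the latter 2 kinds were left out. The brightest probe set per gene was used, and genes at or below the 40th percentile of mean signal (67.9) were not tested. A linear model of 4 group means was fitted to the log2 signals of all 8 arrays (limma 3.58.1, R 4.3.3), with mutant minus wild type contrasts per set and trended eBayes moderation (4 residual and 7.37 prior degrees of freedom, two-sided, Benjamini-Hochberg over 10913 genes, threshold 0.05). An exact permutation test of 2 arrays against 2 cannot go below 0.333. Array number limits the precision. Within-group correlations were 0.976 to 0.987, and tested-gene medians 436 to 582. Alternatives covered scale, added constant, filter, probe set, variance model, arrays fitted, the methods' t-test, embryo sex and each array left out. Members, gene lists, motifs and alternatives were chosen with earlier results of these data known. The text names members, genes of the lists, the 5 genes most like Ch25h, and check genes. Listed genes that the tables did not match are not reported here. Tested on simulated data, limma called 94%, 56.7% and 9.09% of genes shifted 4-fold, 2-fold and 1.5-fold in the EC-N1ICD comparison and 91%, 55.2% and 21.2% in that of EC-Rbpj-KO. Of 10713 unshifted genes, 4 and 1 were called.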

Additional observations from a re-analysis of the deposited data

Results flagged for a closer look

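Abca1 stood out because its effect differed between the 2 models in the test of the difference itself. Its log2 fold change was -0.53 with activated Notch1 (EC-N1ICD) and -2.20 without RBPJ (EC-Rbpj-KO), a difference of 1.67 (EC-N1ICD minus EC-Rbpj-KO, adjusted p = 0.0185 from limma). On its brightest probe set both mutant arrays lay below both wild type arrays in each model. The 2 dim probe sets were not lower in EC-N1ICD, with ratios of 1.01 and 1.2.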

How the results depend on the processing

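No paired analysis was possible because no number in the sample names matches a mutant to 1 wild type array, and the first number, shared by mutant replicate 2 and both wild types of each set, has no stated meaning. A block on it takes each effect from those 3 arrays alone, which is the estimate without mutant replicate 1, with a median of the 7 sterol genes of -0.311 in EC-Rbpj-KO and 0.146 in EC-N1ICD. Over 120 gene values and 2132 comparisons with an alternative, 2070 kept their side of the threshold, 39 lost it and 23 gained it. No value past the threshold changed direction. Values that did not pass could change sign, as for Hmgcs1 in EC-Rbpj-KO, which ran from -0.362 to 0.364. The count of the 7 sterol genes that fell in EC-Rbpj-KO (1) was 0 with median centring, quantile normalization, no variance trend, only the arrays of the set, the methods' t-test and embryo sex in the fit, and 0 to 3 with an array left out. The 3 were reached without EC-Rbpj-KO replicate 2, and without any other single array the count was 0. The count of other sterol synthesis genes (1) was 0 when all probe sets were averaged, with the methods' t-test and sex in the fit, and 0 to 5 with an array left out, 5 without EC-Rbpj-KO replicate 2 and 0 without EC-Rbpj-KO replicate 1 or its wild type replicate 2. The median of the 7 sterol genes in EC-Rbpj-KO was -0.791 to -0.311 with an array left out. In EC-N1ICD it was 0.132 to 0.28 with an array left out and 1.01 with sex in the fit, which by construction takes the sex effect from the EC-Rbpj-KO arrays. The log2 value of Ch25h ran from 1.80 to 2.76 in EC-N1ICD and from 1.60 to 2.29 in EC-Rbpj-KO, with no value at the 60th percentile filter, which it did not pass. Over the whole table, 41 genes rose and 24 fell in EC-N1ICD, and 61 and 45 did so with median centring, 70 and 49 with quantile normalization, 15 and 12 at the 60th percentile, 61 and 42 with only the arrays of the set, 34 and 16 with no trend and 6 and 9 with sex in the fit. For EC-Rbpj-KO, 218 rose and 323 fell, and these counts were 375 and 300 with median centring, 301 and 334 with quantile normalization, 142 and 265 at the 60th percentile, 120 and 146 with only the arrays of the set and 136 and 478 with sex in the fit. The methods' t-test called 939 and 1313 genes in the 2 comparisons unadjusted and 0 and 1 after adjustment. Low signal limits the fold of Ch25h.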
